A study of Rattus norvegicus with 8 samples.

Results

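The immunoproteasome and the antigen processing machinery were followed through 9 genes: Psmb8, Psmb9, Psmb10, Psme1, Psme2, Tap1, Tap2, Tapbp and B2m. They were taken by name from an array of rat genes, on which they were read by 12 of 41012 probes, and they are 9 of 17542 named genes. The study profiled BRL-3A cells, an established line from rat liver, after transfection with lipofectamine. Its 2 groups of 4 arrays, each with RNA taken at 48 h, were cells given an siRNA directed at lnc19959.2, a long noncoding RNA (siRNA), and cells whose transfection is labelled NC. Both groups were cultured in the same medium with serum and differed, as far as the labels say, in the transfected agent only. The labels do not say what NC stands for, nor whether the 4 arrays of a group came from separate cultures. The knockdown was not checked, because lnc19959.2 is not among the probe names.

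Cells that present peptides on class I molecules cut proteins in the proteasome, carry the fragments into the endoplasmic reticulum and load them there onto a class I heavy chain bound to beta 2 microglobulin. In cells exposed to interferon gamma, the catalytic subunits Psmb5, Psmb6 and Psmb7 of new proteasomes are replaced by Psmb8, Psmb9 and Psmb10, which changes the peptides that are made. The genes of this machinery are classical targets of interferon signalling, through the transcription factor Irf1 and the coactivator Nlrc5 among others, and in liver the immunoproteasome is known from viral and inflammatory disease.

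Of the 9 genes, 4 lie side by side on chromosome 20, in the class II region of the rat major histocompatibility complex, in the order Tap2, Psmb8, Tap1, Psmb9. RefSeq's annotation of the GRCr8 assembly holds 4 genes from Tap2 to Psmb9, all 4 of them measured here. The array read each of these genes with 1 probe of 60 bases. The array design places the probes on the rn4 build: Tap2 at chr20:4770747-4770806, Psmb8 at chr20:4787980-4788039, Tap1 within chr20:4792827-4793962 and Psmb9 at chr20:4806341-4806400. The stretch given for Tap1 is longer than its probe. Each probe was designed on the gene's RefSeq transcript, so it reads exonic sequence, and each holds at least 1 open reading frame. The probe sequences are shown because the results below turn on how differently these neighbours were read.
Tap2 probe: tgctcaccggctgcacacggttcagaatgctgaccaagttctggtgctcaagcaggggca
Psmb8 probe: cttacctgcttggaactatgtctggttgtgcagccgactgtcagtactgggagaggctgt
Tap1 probe: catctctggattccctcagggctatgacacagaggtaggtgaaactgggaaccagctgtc
Psmb9 probe: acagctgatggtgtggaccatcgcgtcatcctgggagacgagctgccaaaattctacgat

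Tap1 and Psmb9 are transcribed away from each other, with 456 bases between their starts in the RefSeq promoter table of GRCr8, and the stretches of 250 bases before the starts share 44 bases. The upstream sequences of both genes, of Tap2 and of Psmb10 are shown because these members are the ones whose directions are compared below. They are written 5′ to 3′ on the gene's own strand and end at the base before its start. Capitals mark matches to the core of the interferon-stimulated response element (GAAANNGAA, on either strand) and to the NF-kB site.
Tap1 upstream, chr20:4668544-4668793, minus strand: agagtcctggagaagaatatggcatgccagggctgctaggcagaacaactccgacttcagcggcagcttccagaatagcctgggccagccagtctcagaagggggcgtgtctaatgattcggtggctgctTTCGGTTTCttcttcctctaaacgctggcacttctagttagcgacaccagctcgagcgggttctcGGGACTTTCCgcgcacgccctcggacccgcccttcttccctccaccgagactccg
Psmb9 upstream, chr20:4668750-4668999, plus strand: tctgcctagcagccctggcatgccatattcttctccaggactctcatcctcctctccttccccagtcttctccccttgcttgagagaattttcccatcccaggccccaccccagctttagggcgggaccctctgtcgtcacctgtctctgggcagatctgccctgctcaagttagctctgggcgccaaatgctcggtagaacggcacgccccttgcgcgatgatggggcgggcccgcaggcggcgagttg
Tap2 upstream, chr20:4652297-4652546, minus strand: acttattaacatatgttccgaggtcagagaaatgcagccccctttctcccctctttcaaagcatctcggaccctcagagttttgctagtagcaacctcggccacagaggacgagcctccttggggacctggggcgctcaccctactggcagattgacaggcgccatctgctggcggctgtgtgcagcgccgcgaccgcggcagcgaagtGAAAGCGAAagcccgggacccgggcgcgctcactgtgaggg
Psmb10 upstream, chr19:50743293-50743542, minus strand: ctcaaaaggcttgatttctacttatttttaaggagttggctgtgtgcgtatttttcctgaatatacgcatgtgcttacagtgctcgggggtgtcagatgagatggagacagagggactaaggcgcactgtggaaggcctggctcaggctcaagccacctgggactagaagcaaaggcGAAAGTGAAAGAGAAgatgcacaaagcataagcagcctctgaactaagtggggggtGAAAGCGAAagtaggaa

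All 9 genes had a window of these 250 bases plus the first 50 transcribed ones. The response element core was found in 7 of the 9, all but Psmb9 and Psme1, and in 9.71% of the 33469 windows of the RefSeq table. In Psmb10 and in Tapbp, a pair of matches overlapped. The NF-kB site was found in 3 of the 9 (Tap1, Tapbp and B2m) and in 7.51% of all windows. The response element and NF-kB matches of Tap1 lie in the 456 bases between the Tap1 and Psmb9 starts. They are thus also upstream of Psmb9, but outside its window. The gamma-activated site TTCNNNGAA was found in 1 of the 9 (Psmb8) and in 8.87% of all windows, and the cyclic AMP element TGACGTCA in 0 of the 9 and in 1.83% of all windows. Both strands were searched. A match is a string of letters and not a measured binding site, and these windows were chosen by gene and not by any readout of binding.

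The comparison of siRNA with NC cells showed no single direction for the 9 genes. Psmb9, a catalytic subunit, Psmb10, another one, Psme1, a subunit of the proteasome activator, and Tap2, 1 chain of the peptide transporter, rose in siRNA cells, by 1.45-fold, 1.24-fold, 1.20-fold and 1.80-fold. Tap1, the partner chain of Tap2, fell 1.87-fold, and the brightest probe of B2m, the class I light chain, read 1.14-fold lower. Psmb8, Psme2 and Tapbp were not called. By limma at an adjusted p under 0.05, 4 of 9 genes were therefore called higher and 2 of 9 lower, while 35.3% of the 11476 measured genes were called higher and 29.3% lower, 64.6% in all. The median difference over the 9 genes was 0.14 on the log2 scale, against 0.04 over all measured genes. In 5 of the 9 the siRNA and NC arrays did not overlap, as in 62.1% of all measured genes. The shares of called and of separated genes among the 9 were thus close to those over all genes. Calls in both directions were likewise found over all genes, so a split among the 9 is not particular to them. The following paragraphs describe the direction of each gene.

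Slide 1 and scan 1 held the 4 NC arrays and slide 2 and scan 2 the 4 siRNA arrays, so what slide or scan adds cannot be told apart from the transfection. The 75th percentile of the spot intensity was 245 to 261 on NC arrays and 289 to 322 on siRNA arrays, and 57.3% to 64.1% and 55.4% to 59.1% of spots lay well above background. Log2 signals correlated at 0.986 to 0.993 within groups and at 0.946 to 0.962 between them. The 12 probes of the 9 genes were well above background on all 8 arrays. Precision is limited by there being 4 arrays per group. Levels below are log2 of the processed intensity minus the array's 75th percentile, differences are siRNA minus NC on that scale with the standard error (SE) of the limma fit, and a level of one probe says nothing of the level of another. A bulk signal cannot tell fewer cells of a type from less RNA per cell.

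**Figure D1:**
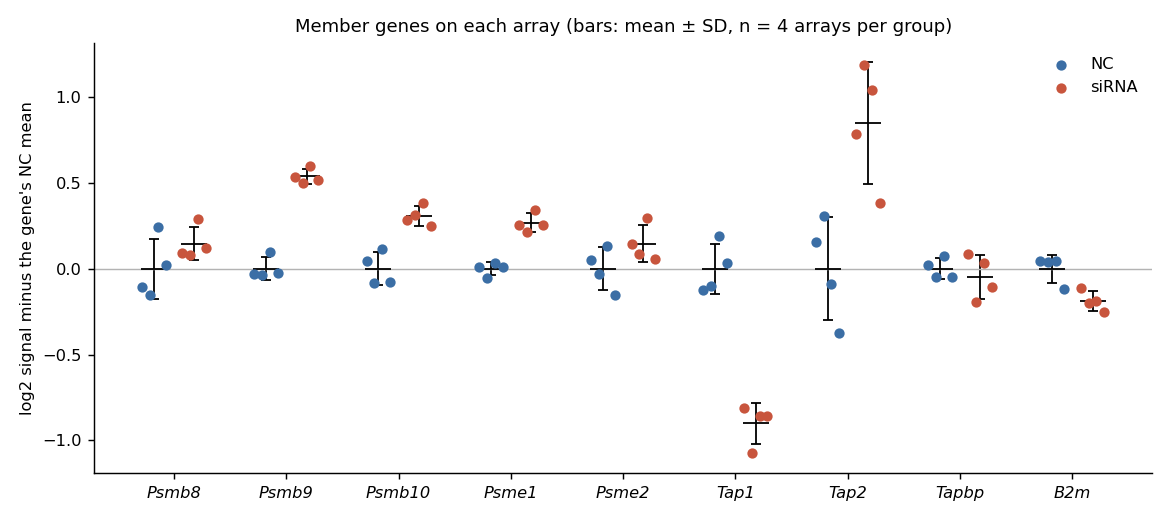
The 9 genes on each of the 8 arrays, as the log2 signal of the gene's brightest probe minus that gene's mean over the NC arrays; points are arrays, bars the mean ± SD (n = 4 arrays per group). Psmb9 and Tap1 stand clear of the NC arrays in opposite directions, Tap2 lies higher with a wide spread, and the arrays of Psmb8, Psme2, Tapbp and B2m overlap between groups.

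Psmb9 encodes the subunit that takes the place of Psmb6 in the immunoproteasome. Its level was 2.43, 2.42, 2.56 and 2.43 on NC replicates 1 to 4 and 2.996, 2.96, 3.06 and 2.98 on siRNA replicates 1 to 4. The siRNA arrays were all higher than every NC array, by 0.54 on average (SE 0.051, adjusted p = 7.88e-05, limma). NC replicate 3 stood above the other NC arrays and still below the lowest siRNA array. The processed intensities behind these levels ran from 1365 to 1444 on NC and from 2304 to 2541 on siRNA arrays. Of all measured genes, 85.9% had a lower difference than Psmb9.

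Psmb10, which takes the place of Psmb7, read 4.68, 4.55, 4.74 and 4.55 on NC replicates 1 to 4 and 4.91, 4.95, 5.01 and 4.88 on siRNA replicates 1 to 4. The groups did not overlap, and the difference was 0.31 (SE 0.062, adjusted p = 0.00321, limma; 95% confidence interval 0.16 to 0.45). Psmb8, which takes the place of Psmb5, read -0.07, -0.12, 0.28 and 0.05 on NC replicates 1 to 4. Its siRNA values were 0.13, 0.11, 0.32 and 0.16. NC replicate 3 exceeded 3 of the siRNA arrays, so the groups overlapped, and the difference was 0.14 (SE 0.096, adjusted p = 0.219, limma). Its 95% confidence interval, -0.08 to 0.37, includes the size of the Psmb10 difference and not that of Psmb9. Without NC replicate 3 the difference of Psmb8 was 0.22 with an adjusted p of 0.0367 by limma.

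Psme1 and Psme2 encode the alpha and beta subunits of the interferon-induced activator ring that opens the proteasome gate, and they lie close together on chromosome 15. Psme1 read 3.79, 3.73, 3.82 and 3.79 on NC replicates 1 to 4 and 4.04, 4.00, 4.13 and 4.04 on siRNA replicates 1 to 4. Its siRNA arrays were all higher, by 0.27 (SE 0.047, adjusted p = 0.00172, limma). Psme2 read 4.58, 4.50, 4.66 and 4.37 on NC and 4.67, 4.61, 4.82 and 4.58 on siRNA replicates. These groups overlapped, with a difference of 0.14 (SE 0.081, adjusted p = 0.154, limma; 95% confidence interval -0.04 to 0.33). The interval of Psme2 includes the value of Psme1.

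Tap1 and Tap2 form the transporter that pumps peptides into the endoplasmic reticulum, with 1 chain from each gene. Tap1 read 0.37, 0.40, 0.69 and 0.53 on NC replicates 1 to 4 and -0.31, -0.58, -0.36 and -0.36 on siRNA replicates 1 to 4. Every siRNA array was below every NC array, and the difference was -0.90 (SE 0.090, adjusted p = 0.000103, limma; 95% confidence interval -1.11 to -0.69). Of all measured genes, 10.6% had a lower difference. Tap2 went the other way.

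Tap2 read -1.39, -1.24, -1.63 and -1.92 on NC replicates 1 to 4 and -0.76, -0.36, -0.50 and -1.16 on siRNA replicates 1 to 4. The groups did not overlap, although siRNA replicate 4 came within 0.1 of NC replicate 2, and the spread within groups was wider than for the other members (SD 0.30 and 0.35, n = 4 each). The difference was 0.85 (SE 0.207, adjusted p = 0.00818, limma; 95% confidence interval 0.37 to 1.33), above that of 94.1% of measured genes. The Tap2 probe was dim, at processed intensities of 68.4 to 108 on NC and 144 to 239 on siRNA arrays. With the normexp background correction in place of the scanner software's own, the difference was 0.28 with an adjusted p of 0.378 by limma. In a second form of that correction, chosen after seeing the data, which left out spots dimmer than their local background, it was 0.47 with an adjusted p of 0.0111.

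Tapbp encodes tapasin, which holds the class I heavy chain at the transporter. It read 1.03, 0.97, 1.09 and 0.96 on NC replicates 1 to 4 and 1.10, 0.82, 1.04 and 0.90 on siRNA replicates 1 to 4, and the groups overlapped throughout. The difference was -0.05 (SE 0.073, adjusted p = 0.591, limma), with a 95% confidence interval of -0.22 to 0.12.

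B2m encodes beta 2 microglobulin and was the only one of the 9 genes with several probes, and these disagreed. Its brightest probe read 8.37, 8.36, 8.37 and 8.20 on NC replicates 1 to 4 and 8.21, 8.12, 8.13 and 8.07 on siRNA replicates 1 to 4. The difference was -0.19 (SE 0.057, adjusted p = 0.0211, limma), and the groups overlapped, since NC replicate 4 lay just below siRNA replicate 1. The probe spotted 10 times on each array, which shares 41 of its 60 bases with the brightest one, gave -0.16 and was not called (adjusted p = 0.0751, limma). The other 2 probes lie farther along the transcript, at positions 1569 and 1693 against 343 for the brightest. Each of them gave 0.03, with adjusted p of 0.742 and 0.816 by limma. The call on the brightest probe was also lost when any of 4 arrays was left out. It was -0.18 without NC replicate 1, 2 or 3 (adjusted p of 0.0521, 0.0564 and 0.052, limma) and -0.19 without siRNA replicate 2 (adjusted p = 0.0512, limma). No B2m spot was marked as saturated, and processed intensities of the brightest probe ran from 76145 to 86633.

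Pairs of genes were next compared within each array, which cancels any factor shared by the whole array. For each pair the difference of the log2 signals was taken on each array, and the siRNA mean was set against the NC mean by an exact two-sided permutation test, adjusted over the 8 pairs. With 4 arrays against 4, the smallest p this test allows is 0.0286. The pairs that reached it had 0.0571 after adjustment, so no pair passed 0.05. That adjusted value depends on how many of the pairs reach the smallest p. The groups did not overlap for 4 of the 8 pairs. The share over all pairs of measured genes was not computed, and among single genes it was 62.1%. Psmb9 minus Tap1, the neighbours with nearby starts, was higher in siRNA arrays by 1.44 (SE 0.068, exact p = 0.0286). The siRNA arrays lay 1.35 to 1.57 above the NC mean and the NC arrays between -0.09 and 0.09 of it. Tap1 minus Tap2, the 2 chains of the transporter, was lower by -1.75 (SE 0.297, exact p = 0.0286). The lowest and highest siRNA arrays were at -2.26 and -1.24 relative to the NC mean, and NC arrays at -0.41 to 0.41. With normexp, Tap1 minus Tap2 differed by -1.01 (exact p = 0.0571), and in the second form of that correction by -1.25 (exact p = 0.0286).

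Each immunosubunit was also set against the subunit it replaces. Psmb9 minus Psmb6 was higher by 0.26 (SE 0.055, exact p = 0.0286), with no overlap between groups. Psmb10 minus Psmb7 differed by 0.14 (SE 0.058, exact p = 0.114) and Psmb8 minus Psmb5 by -0.16 (SE 0.096, exact p = 0.114), each with overlapping groups. Both replaced subunits of the pairs that overlapped were themselves called higher, Psmb5 by 0.30 and Psmb7 by 0.16, as was Psmb6 by 0.28. Psmb7 lost its call with quantile normalization (0.060) and cyclic loess (0.051). Psmb9 was thus the one immunosubunit whose siRNA arrays were all above the NC arrays relative to its counterpart, and the differences between the 3 pairs were not tested. For Psmb10 minus Psmb7 the overlap came from NC replicate 3 alone, at 0.15 relative to the NC mean. The other NC arrays lay at -0.09 to -0.01 and the siRNA arrays at 0.11 to 0.20.

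Psme1 minus Psme3, in which Psme3 forms a nuclear activator of its own, was higher by 0.33 (SE 0.048, exact p = 0.0286), again with no overlap. Psme3 alone differed by -0.06 (adjusted p = 0.399, limma). Psme1 minus Psme2 differed by 0.12 (SE 0.066, exact p = 0.114) and Psmb8 minus Tap2 by -0.70 (SE 0.275, exact p = 0.0857), and in both the groups overlapped.

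**Figure D2:**
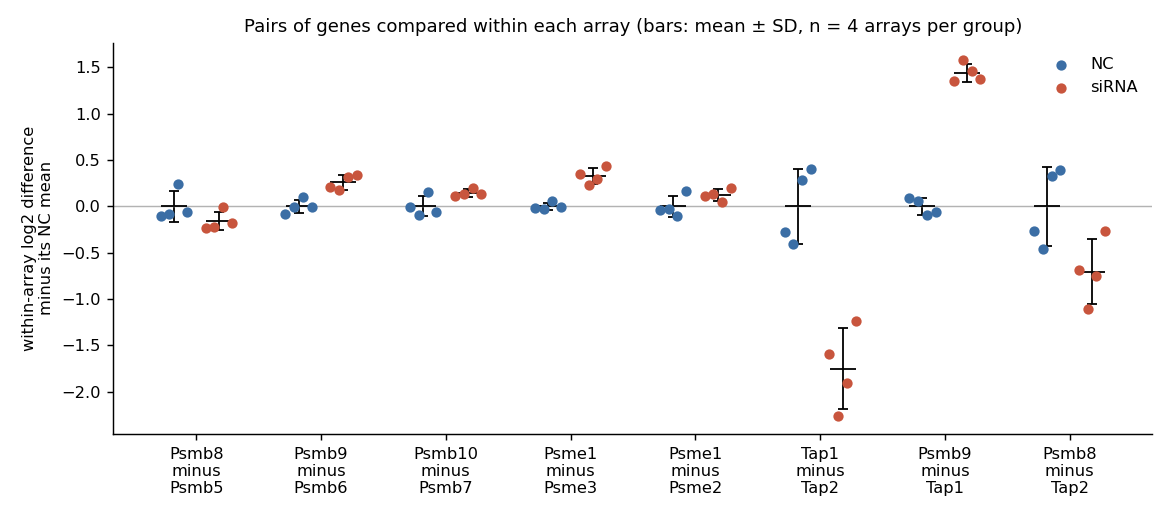
Within-array log2 differences of the 8 pairs on each of the 8 arrays, each minus its mean over the NC arrays; points are arrays, bars the mean ± SD (n = 4 arrays per group). Psmb9 minus Tap1 is the tightest of the large differences, with siRNA arrays at 1.35 to 1.57, and Tap1 minus Tap2 the largest and most spread, at -2.26 to -1.24.

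Along the chromosome, the 4 adjacent genes read 0.85 (Tap2), 0.14 (Psmb8, not called), -0.90 (Tap1) and 0.54 (Psmb9). The 5 measured genes before Tap2 were as varied. Pbx2, a homeobox factor, was higher by 0.95 and Notch4, a Notch receptor, by 0.46, Ager, which encodes a receptor for glycated proteins, was lower by -1.12 and Gpsm3 by -0.23 (0.082 under median and 0.30 under spike-in scaling), and Agpat1 was not called at 0.09. After Psmb9, Brd2, a bromodomain protein, was lower by -0.61 and Slc39a7, a zinc transporter, higher by 0.52. RT1-DMa, a class II peptide loading chain, and Rxrb, a retinoid receptor, were not called at 0.11 and 0.30, but were without siRNA replicate 4, at 0.13 and 0.40. Rxrb was also called higher with quantile normalization (0.49), cyclic loess (0.45), median scaling (0.61) and spike-in scaling (0.84). RT1-DMa was called with median (0.42) and spike-in scaling (0.64), as was Agpat1 (0.40 and 0.62). Brd2 was not called with spike-in scaling (-0.07), and Brd2, Ager, Gpsm3 and Notch4 were not called with normexp. Col11a2, a collagen chain, read -2.12 but was above background on only 1 siRNA array. The 4 members thus differ in direction in a stretch whose other genes also differ among themselves.

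**Figure D3:**
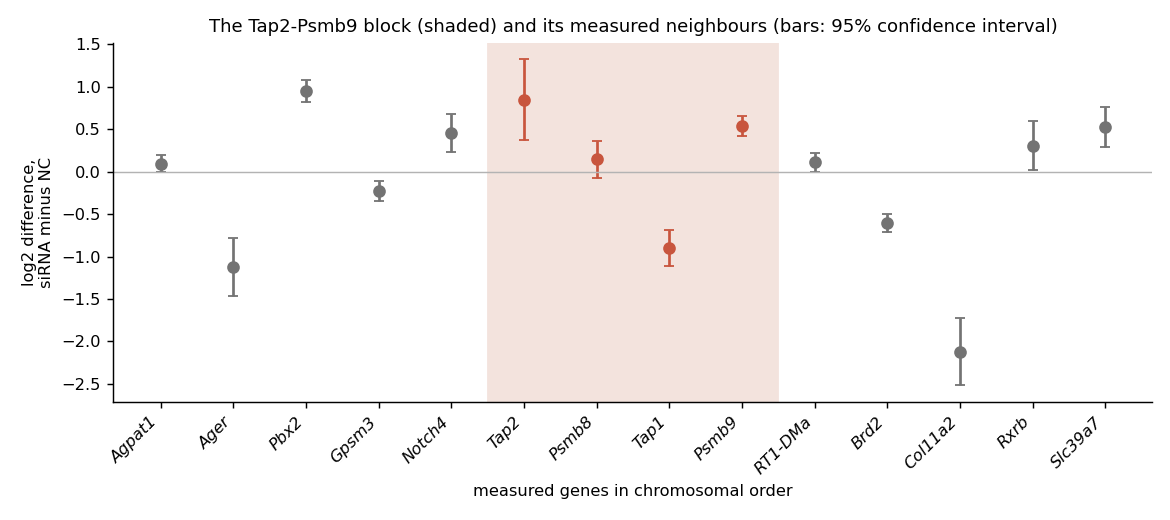
Log2 difference, siRNA minus NC, of the 4 adjacent members (shaded) and of the 5 measured genes on either side, in their order on chromosome 20; bars are 95% confidence intervals of the limma fit (n = 4 arrays per group). Tap1 at -0.90 lies between Psmb8 at 0.14 and Psmb9 at 0.54.

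The rest of the class I pathway was read from gene lists. Of the 36 genes listed for the constitutive proteasome, 20 were called higher and 1 lower, with a median of 0.15. Psmb5 (0.30), Psmc3 (0.27), Psma1 (0.31) and Psmd9 (0.30) were the 4 with the smallest adjusted p, beside 0.31 for Psmb10 and 0.27 for Psme1. The count of 20 moved with the processing, to 9 with cyclic loess, 36 with spike-in scaling and 0 with normexp (limma). Of 15 common reference genes, 8 were called higher and 3 lower, with a median of 0.20. With spike-in scaling 13 of them were higher and 0 lower, and with normexp 2 and 0. Of 7 measured activators, inhibitors and assembly factors, 4 were higher and 1 lower, with a median of 0.17. These counts became 1 and 2 with quantile normalization or cyclic loess, 7 and 0 with median or spike-in scaling, and 0 and 0 with normexp (limma). The chaperones Psmg2 (0.33), Psmg1 (0.20) and Pomp (0.17) rose, although Psmg1 (0.077 and 0.084) and Pomp (0.061 and 0.045) were not called with quantile normalization and cyclic loess. Without NC replicate 2 or siRNA replicate 2, Pomp (0.16 and 0.15) and Psmf1 (-0.15 and -0.15) were not called, nor was Psmf1 without NC replicate 1 (-0.15). The inhibitor Psmf1 (-0.16) fell, a change that turned to 0.15 when arrays were scaled to their medians and to 0.37 when scaled to spike-in controls. Among 18 other genes of peptide supply and loading, 4 were higher and 2 lower, with a median of 0.05. Their counts were 5 and 6 with quantile normalization (median -0.07), 13 and 1 under median scaling, 17 and 0 when scaled to spike-in controls and 1 and 0 with normexp. The trimming peptidase Erap1 rose by 0.40, the peptidase Nrdc by 0.30 and the signal peptidase subunit Spcs1 by 0.30, while the chaperone Hspa5 fell by 0.49 on the log2 scale (with spike-in scaling it read 0.05).

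The class I heavy chains, which B2m pairs with, and the class I-like molecules, of which only some do, were mostly lower. Of 45 listed genes 25 were measured, 16 of them lower and 2 higher, with a median of -0.43. RT1-CE3 (-0.89) and RT1-A2 (-0.78, and -0.36 on its other probe) fell, beside -0.90 for Tap1, and RT1-CE6, above background on no siRNA array, was at least 2.34-fold lower. For that bound the NC mean was set against a detection limit on the siRNA arrays, the dimmest signal marked as well above background, or the probe's own signal where that was brighter. Cd1d1, a lipid-presenting molecule, rose by 0.55. The RT1 genes are near-identical copies, so 1 probe can read several of them and their values are uncertain and not independent. With spike-in scaling 7 were lower and 7 higher, and with normexp 4 were lower and 1 higher. Of all measured genes, 29.3% were lower and 35.3% higher as reported. With spike-in scaling these shares were 10.3% and 71.9%, and with normexp 7.16% and 10.7%. RT1-CE3 (-0.60), RT1-A2 (-0.47) and RT1-CE6 (-0.95) were not called with normexp, whereas Tap1 was (-0.73).

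The signalling genes upstream of the 9 split as well. Of 21 measured, 4 were higher and 8 lower, with a median of -0.14, and with median scaling 11 were higher and 3 lower. Of all measured genes, 35.3% were higher and 29.3% lower as reported, and 59.8% and 15.4% with median scaling. Irf7 (-1.50) and Stat2 (-0.89), both of the type I interferon response, fell, while Ifnar1 (0.56), a receptor chain, and Rfxank (0.37), a factor of class I and class II promoters, rose. A second Ifnar1 probe read 0.06 and was not called. Irf1 at 0.32 (adjusted p = 0.113, limma) was not called. It was singled out after its value was seen because it is a textbook regulator of the 9 genes. With median and spike-in scaling it was called higher, at 0.63 and 0.85, and with quantile normalization at 0.45. With normexp its sign turned, to -0.14 (adjusted p = 0.645, limma), and it read 0.13 in the second form of that correction. It was also called without siRNA replicate 4 (0.45, adjusted p = 0.014, limma).

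Other interferon-induced genes were lower in nearly every case. Of 36 measured, 32 were lower and 0 higher by limma at an adjusted p under 0.05 (32 lower and 0 higher at an unadjusted p under 0.05), with a median of -1.34. Under median scaling 31 were lower and 2 higher, under spike-in scaling 25 and 4, and with normexp 21 and 0. Of all measured genes, 29.3% were called lower as reported, and 15.4%, 10.3% and 7.16% in these settings. Gbp4 (-2.63), Oasl (-3.10), Isg20 (-1.65) and Ifih1 (-1.53), all antiviral or guanylate-binding genes, had the smallest adjusted p. Among the 9 members, Tap1 and the brightest B2m probe were lower as well, and Psmb9, Psmb10, Psme1 and Tap2 rose. Of the class II list 3 of 12 were measured, with Ctss at least 7.55-fold and Ciita at least 1.49-fold lower, and Cd74 was above background on no array. Ctss and Ciita were above background on no siRNA array, so both counted as measured through the NC arrays alone. Ciita was not called with normexp (-0.75).

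**Figure D4:**
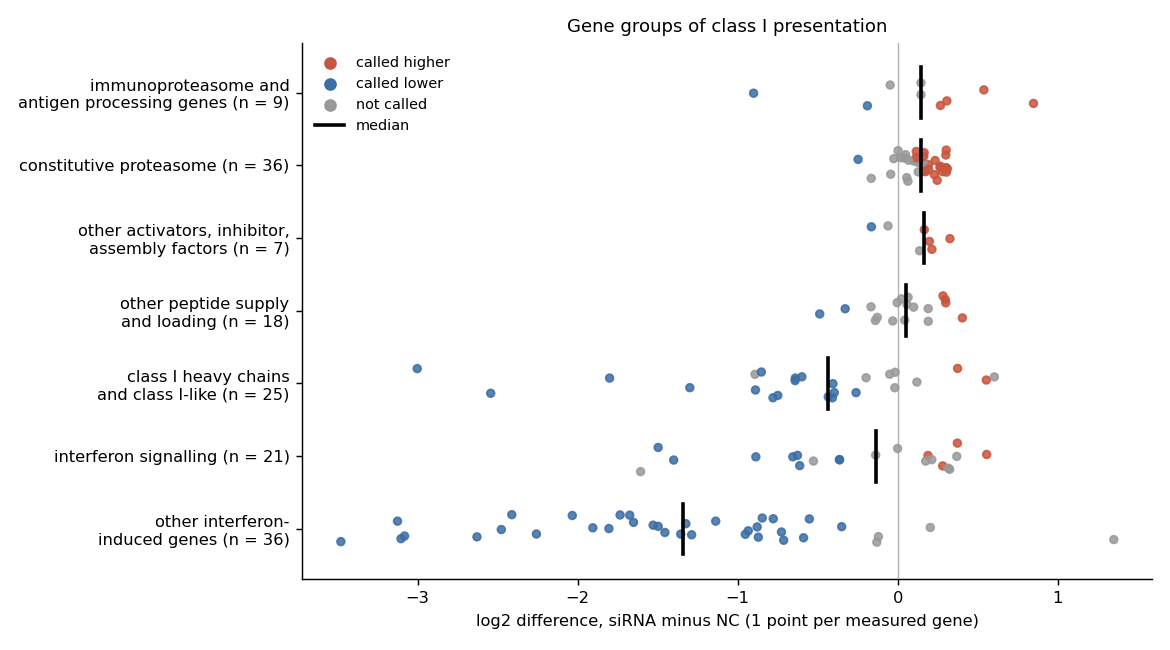
Log2 difference, siRNA minus NC, of each measured gene in 7 gene lists (horizontal axis; 1 point per gene, n = 4 arrays per group); black bars are list medians and colours show limma calls at an adjusted p under 0.05. The median of the 9 members, 0.14, lies with that of the constitutive proteasome at 0.15, and that of the other interferon-induced genes is -1.34. That of 15 reference genes, not drawn, is 0.20.

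The labelled origin of the cells was set against marker genes. Of all measured genes, 35.3% were called higher and 29.3% lower. Of 19 hepatocyte markers, 6 (Alb, Ttr, Tf, Tat, Cyp3a2 and Serpina1) were above background on no array and 9 were measured, 6 of them lower and 1 higher in siRNA cells. Their summed signal was 0.84 to 1.14 on NC and -0.86 to -0.58 on siRNA arrays, on the log2 scale relative to the array's 75th percentile. Of the 19, 2 were above background on all 8 arrays. Apoa1 was above background on 1 siRNA array and Asgr1 and Asgr2 on 0, so these counted as measured through the NC arrays alone. Genes kept in this way could hardly read other than lower, and the sums include signals below background. Of 24 leukocyte markers, 8 were measured, 5 lower and 0 higher by limma (5 lower and 1 higher at an unadjusted p under 0.05), among them Cd68 (-2.40) and Nkg7, at least 19.2-fold lower. Their summed signal was 3.08 to 3.30 on NC and 2.54 to 2.77 on siRNA arrays, and 9 of the 22 on the array, Cd3g, Cd8a, Cd4 and Cd79a among them, were above background on none. Nkg7 was above background on no siRNA array. Fibroblast markers, 10 measured of 15, had 4 higher and 1 lower and summed to 8.97 to 9.05 and 9.03 to 9.17, with Col3a1 higher by 2.66. Endothelial markers, 5 measured of 10, had 3 higher and 2 lower and summed to 1.15 to 1.57 and 2.11 to 2.56. The 2 lower ones, Vwf and Tek, were above background on 4 NC and 0 siRNA arrays, so they too counted as measured through the NC arrays alone. Cholangiocyte markers, 3 measured of 8, had 1 higher and 2 lower and summed to 1.08 to 1.25 and 2.08 to 2.28. The part of these changes in the results for the 9 genes was not tested.

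The genes whose pattern over the 8 arrays was most like that of Psmb9 and of Tap1, the members with the smallest adjusted p in each direction, were taken by Pearson correlation. For Psmb9 these were Serpinf1 (0.998), Cd82 (0.996), Plekhb1 (0.995) and RGD1564906 (0.994), which were themselves higher by 1.28, 0.83, 1.61 and 2.14. For Tap1 these were RT1-CE3 (0.997), Mad2l1bp (0.996), Helb (0.996) and Tbkbp1 (0.995), lower by -0.89, -0.58, -0.50 and -1.001. The 8 points share the step between groups, slides and scans, and the correlations are given as a description.

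How the arrays were scaled set the sign for some of the 9 genes. Relative to the 75th percentile, median scaling moved the median difference of all measured genes from 0.04 to 0.35, and spike-in scaling moved it to 0.57. Genes called higher and lower were then 59.8% and 15.4% of all under median scaling, and 71.9% and 10.3% under spike-in controls, in place of 35.3% and 29.3%. Psmb9 stayed called higher, at 0.85 and 1.07, as did Psmb10 (0.62 and 0.84), Psme1 (0.58 and 0.80) and Tap2 (1.16 and 1.38). Tap1 stayed called lower, at -0.59 and -0.37. Psmb8 and Psme2 were called higher with both, each at 0.46 and 0.68. Tapbp turned to 0.26 and 0.49 and was called higher with both. B2m turned to 0.12, not called, with median scaling and to 0.34, called higher, with spike-in scaling. The opposed directions of Tap1 and of Psmb9 and Tap2 therefore held under these scalings, whereas the signs of Tapbp and B2m did not. With quantile normalization Psmb10 and Psme1 were called higher at 0.18 and 0.16. With normexp they read 0.62 and 0.57 and were not called (adjusted p of 0.0909 and 0.124, limma), as 17.8% of all genes were called there.

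**Figure D5:**
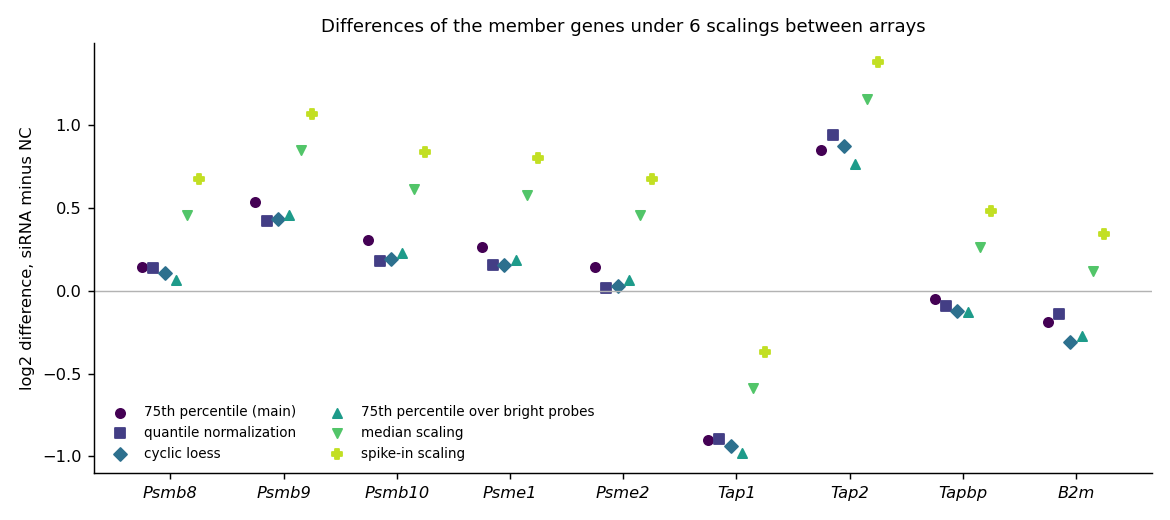
Log2 difference, siRNA minus NC, of the 9 genes under 6 ways of scaling the arrays (vertical axis; 1 symbol per scaling, means of n = 4 arrays per group). Median and spike-in scaling shift all genes upwards, which turns Tapbp and B2m above 0, while Tap1 stays below 0, from -0.98 to -0.37, and Psmb9 above 0, from 0.42 to 1.07.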

How the data were processed

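RNA of 8 samples was hybridised to 1-colour Agilent rat arrays, 1 sample per array. Per the file headers, the deposited intensity of each spot is Agilent Feature Extraction's (12.0.3.1; the submitters' processing notes give 12.0) processed signal, background-subtracted within the array and not scaled between arrays. A further table deposited by the authors gives log2 values for 86 probes, 0 of them of the 9 genes, and was not used. The submitters' processing notes also name limma, without its role.

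Control spots were left out, the log2 of each intensity was taken, the array's 75th percentile over 43379 non-control spots was subtracted, outlier spots (129 to 174 per array) were dropped and spots of a probe averaged. Probes well above background on at least 3 of the 4 arrays of a group were kept (24853), and the brightest kept probe stood for a gene. The 2 groups were fitted with lmFit and eBayes of limma 3.58.1 (R 4.3.3), and two-sided p-values were adjusted over the kept probes by Benjamini-Hochberg, after the fit was tested on simulated data. These p-values rest on the spread between the arrays alone, and that spread may be technical. Pairs of genes were tested by exact permutation over the 70 regroupings of the arrays.

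The members, the gene lists and the pairs were chosen with earlier results of these data known. Named genes are the members, the paired genes, up to 4 called genes per list with the smallest adjusted p, 5 measured neighbours on either side and the 4 genes most like Psmb9 and Tap1. Gene names and upstream sequences came from RefSeq tables of GRCr8, and probe positions on rn4 from the array design. Alternatives covered scaling, background correction, filters, the probe chosen, the variance model, a replicate block and leaving out each array.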

Additional observations from a re-analysis of the deposited data

Results flagged for a closer look

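Within each group of 4 arrays, the highest or lowest array was asked whether it stood far from the other 3, relative to the group's range. Of 40 groups of values, for member probes and pairs, 3 held such an array, and chance alone gives about 1 in 20. The Psmb9 level was 2.56 on NC replicate 3, against 2.42 to 2.43 on the other NC arrays. The level of the brightest B2m probe was 8.20 on NC replicate 4, against 8.36 to 8.37 on the others. The within-array difference of Psmb8 minus Psmb5 was 0.24 on NC replicate 3 relative to the NC mean, against -0.10 to -0.06 on the others.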

How the results depend on the processing

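The results were recomputed under 21 alternatives. Psmb9 was called higher in all 21 (0.42 to 1.07) and Tap1 lower in all 21 (-0.98 to -0.37), and Psmb10, Psme1 and Tap2 were called higher in 20, all but normexp background correction. The number of members called higher, 4 as reported, was 7 with median scaling, 8 with spike-in scaling and 1 with normexp, and 4 to 5 when 1 array was left out. Of all genes, 59.8%, 71.9% and 10.7% were called higher in these settings, and 32% to 35.4% when 1 array was left out. The number called lower, 2 as reported, was 1 with median scaling, spike-in scaling, normexp, the mean of a gene's probes and its least changed probe, and 1 to 2 when 1 array was left out. Of all genes, 15.4%, 10.3%, 7.16%, 31.5% and 28.3% were called lower in these settings, and 25.2% to 28.7% when 1 array was left out. Signs turned with median scaling for Tapbp (0.26), B2m (0.12), Psmf1 (0.15), Psme3 (0.25) and Gpsm3 (0.082). They turned with spike-in scaling for Tapbp (0.49), B2m (0.34), Psmf1 (0.37), Psme3 (0.47), Gpsm3 (0.30), Hspa5 (0.045) and Helb (0.032). With normexp they turned for B2m (0.10), Psmf1 (0.10) and Notch4 (-0.19) and, among genes not called, for Tapbp (0.11), Psme3 (0.25), RT1-DMa (-0.02), Rxrb (-0.33) and Irf1 (-0.14). With the least changed probe B2m turned (0.027). Values that were not called also turned for Agpat1 with quantile normalization (-0.03) and cyclic loess (-0.02), for Tapbp without siRNA replicate 2 (0.0021) and for Psme3 in the second normexp form (0.0015). Among pairs, Psmb9 minus Tap1 was 1.31 with quantile normalization and 1.31 with the normexp form chosen after seeing the data. With normexp, Tap1 minus Tap2 was -1.01 (-1.25 in the form chosen after seeing the data), Psmb8 minus Psmb5 was -0.45 and Psmb8 minus Tap2 was -0.10. The cause was not tested. Normexp called 17.8% of all genes, against 64.6% as reported. All 12 probes were well above background on all 8 arrays, and the Tap2 probe was the dimmest.

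Same-numbered arrays did not deviate together (correlations of 0.01, 0.03, -0.03 and 0.21), and 2 of 8 arrays correlated best with their own number, so the numbers, which equal the array position on both slides, were not taken to pair the samples. With the replicate block, 5 members were higher and 2 lower, since Psme2 (0.14) passed with an adjusted p of 0.0498 by limma. Of all genes, 34.3% were then called higher and 29% lower. A sign-flip test of pairs over the 4 numbers cannot reach a p under 0.05. The authors' series table was not run as an alternative, since it lists 0 probes of the 9 genes.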
